A study of Drosophila melanogaster with 2 samples.

Results

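The genes described here are 10 genes of bone morphogenetic protein (BMP) signalling. They were chosen by name for their place in the pathway, but with earlier results of these data known. They are the ligands dpp and gbb, the receptors tkv, sax and put, the Smads Mad and Med, the nuclear cofactor shn, and the secreted or surface modulators dally and magu. All 10 were found among the 17720 genes of the tables. Their RNA was measured by RNA immunoprecipitation (RIP) and sequencing, in which an antibody pulls a protein out of a lysate with the RNA attached to it. The precipitations were an Lsd1-RIP, with an antibody against Lsd1, and a control titled IgG-RIP, whose antibody label names GFP. Per the labels, both reactions shared 1 lysate of ovaries from wild-type Oregon-R females aged up to 12 hours after eclosion, about 200 females per experiment. Each antibody gave 1 library, without replicates, and no input RNA was analysed here, so the values below carry no test and no p-value.

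BMP ligands are secreted dimers that bring type I and type II receptor kinases together. The type I receptor then phosphorylates the Smad protein Mad, which enters the nucleus with the co-Smad Medea and regulates target genes. In the Drosophila ovary, BMPs from the somatic niche keep germline stem cells undifferentiated by silencing the differentiation gene bam. Lsd1, a histone demethylase encoded by Su(var)3-3, is known to limit BMP signalling from the escort cells that line the germarium. The comparison asks whether the RNAs of this pathway were recovered differently with the Lsd1 antibody than with the control antibody. No sequences of these genes were used here.

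Levels are FPKM, fragments scaled for transcript length and sequencing depth, which the authors deposited with a lower and an upper bound for each gene. A ratio here is the log2 of the Lsd1-RIP value divided by the IgG-RIP value, each in FPKM with 1 added. Fold changes without the added 1 are called plain folds. A gene was eligible for comparison when its status was OK in both tables and its mean FPKM was 1 or more, which held for 6025 genes and for 8 of the 10 BMP genes. The median ratio of the eligible genes was 0.32, with the middle 50% between 0.13 and 0.52, and single genes are read against it. An approximate number of fragments was worked out from the bounds. Its median over eligible genes was 101 in the Lsd1-RIP library and 86.4 in the IgG-RIP library. Intervals on ratios and folds are 2 standard deviations from the deposited bounds. They cover at most counting error and uncertainty in assigning fragments, not the variation between repeated precipitations.

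The pathway was present at low to moderate levels in both precipitates, and most of its RNAs were somewhat higher in the Lsd1-RIP library. The type I receptor gene sax stood highest, at a plain fold of 2.50, and the secreted modulator gene magu lowest of the eligible genes, at 1.06. The 8 eligible genes had a median ratio of 0.54, and 6 of them lay above the median of all eligible genes, where 50% of genes lie by construction. No BMP gene reached a 2-fold difference by the ratio in either direction. The background over all eligible genes was 2.12% for 2-fold higher and 0.697% for 2-fold lower. At 1.5-fold, 2 of the 8 genes (sax and shn) were higher, against 19% of all eligible genes, and 0 were lower, against 1.31%. For 5 of the 8 genes (sax, shn, put, dally and Mad) the deposited intervals of the libraries did not overlap and the Lsd1-RIP value was the higher. The same held for 36.1% of all eligible genes, and for 1.64% the intervals were apart with a lower Lsd1-RIP value, which no BMP gene showed. With the general offset between the libraries removed, the count of 5 became 2, sax and shn, against 10.6% of all eligible genes.

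**Figure D1:**
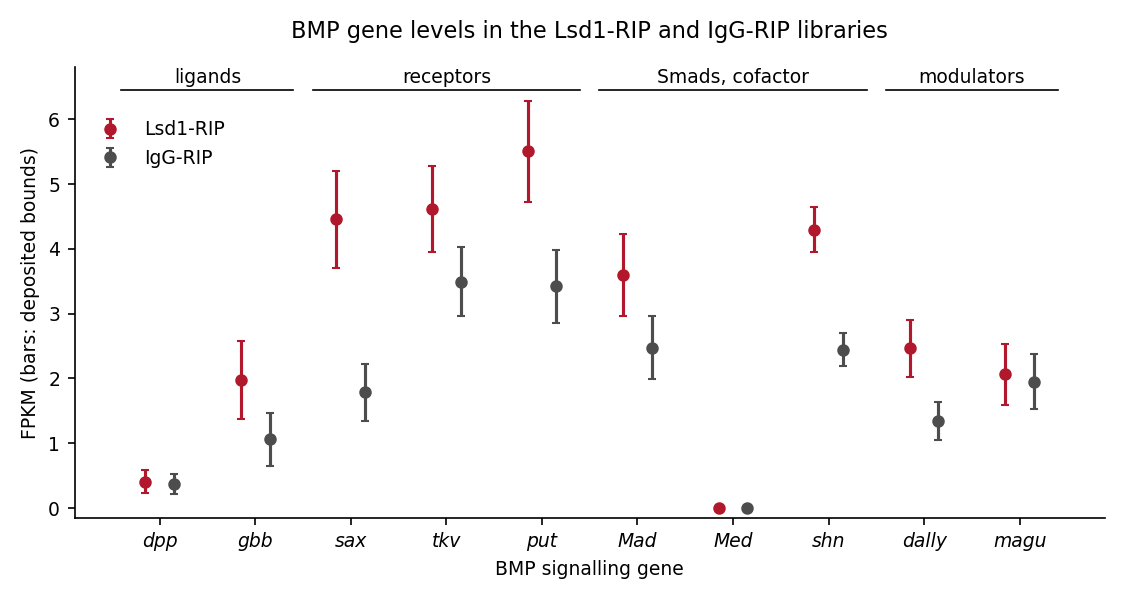
FPKM of the 10 BMP genes in the Lsd1-RIP library (red) and the IgG-RIP library (grey), grouped by role, with bars from the deposited lower to upper bound. The receptor genes reach 5.50 FPKM in the Lsd1-RIP library, dpp stays below 1 and Med is listed at 0 in both.

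Among the ligand genes, gbb was the more abundant and the more different between the libraries. gbb encodes the ligand related to mammalian BMP7 and lies at 2R:23851562-23853247 on dm6 (FBgn0024234, 1686 nt, the shortest of the 10 loci). It had an FPKM of 1.97 (bounds 1.37 to 2.58) in the Lsd1-RIP library and 1.07 (0.656 to 1.47) in the IgG-RIP library. The value was higher with the Lsd1 antibody, a plain fold of 1.85, but the bounds overlapped and the numbers of fragments were small, 43.0 and 27.1. Its ratio was 0.53 (interval 0.12 to 0.93).

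dpp encodes the founding BMP ligand of the fly, a relative of mammalian BMP2 and BMP4, and is needed to keep germline stem cells. The gene (FBgn0000490, 2L:2428372-2459823, 31452 nt) had an FPKM of 0.405 (0.229 to 0.582) in the Lsd1-RIP library and 0.370 (0.213 to 0.527) in the IgG-RIP library, too low to be eligible. The libraries were close to each other, with a plain fold of 1.10 and an interval of 0.597 to 2.01. It rested on 21.1 and 22.2 fragments, so a difference up to the ends of that interval was not detectable at this depth. In whole-ovary lysate a low level can mean few expressing cells or little RNA per cell, and these cannot be told apart.

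The receptor genes held the first 3 places by FPKM in the Lsd1-RIP library, and their ratios ran between 0.32 and 0.97. sax (FBgn0003317, 2R:7806484-7810067, 3584 nt) encodes a type I receptor that takes part in signalling by Gbb. Its FPKM was 4.46 (3.71 to 5.20) in the Lsd1-RIP library and 1.79 (1.35 to 2.22) in the IgG-RIP library. The gap between these bounds, 1.49 FPKM, was the widest of the set, and the plain fold of 2.50 had an interval of 1.86 to 3.35. Its ratio was 0.97 (0.67 to 1.27), short of 2-fold with the added 1 and past it without. It rested on 142 fragments in the Lsd1-RIP library and 67.7 in the IgG-RIP library, and no other annotated locus overlaps the gene.

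tkv, the other type I receptor gene and the main one for Dpp, had an FPKM of 4.62 (3.95 to 5.28) in the Lsd1-RIP library and 3.49 (2.96 to 4.02) in the IgG-RIP library. The bounds overlapped, and its ratio of 0.32 (0.08 to 0.56) equalled the median of all eligible genes to 2 decimals. In the IgG-RIP library tkv had the highest FPKM of the 10 genes, with bounds that overlapped those of put. The plain fold of sax was 1.89 times that of tkv, with an interval of 1.31 to 2.71 from the bounds of both genes. put encodes the type II receptor that pairs with Tkv and Sax (FBgn0003169, 3R:14619030-14625703, 6674 nt). It had 5.50 (4.72 to 6.29) FPKM in the Lsd1-RIP library and 3.42 (2.85 to 3.99) in the IgG-RIP library, with bounds apart and a ratio of 0.56 (0.30 to 0.81).

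The tkv locus (FBgn0003716, 2L:5219000-5271384, 52385 nt) holds or touches 8 other annotated loci, and the kit does not mark strand. Among them, a pseudogene went the other way from tkv. The pseudogene CR14033 (2L:5242699-5244239), which lies wholly within the tkv locus, had an FPKM of 5.45 (4.39 to 6.51) in the Lsd1-RIP library and 9.50 (8.18 to 10.8) in the IgG-RIP library, a ratio of -0.70 (interval -1.001 to -0.40). CR14033 held 106 fragments in the Lsd1-RIP library and 207 in the IgG-RIP library, against 191 and 174 for tkv itself. The remaining loci there were listed at 0 or held at most 11.0 fragments. By fragments scaled to each library's total without ribosomal RNA, tkv alone was at -0.07 on the log2 scale and tkv summed with all 8 loci at -0.56, where the median of all eligible genes was -0.00496. The value of tkv was thus above 0 by FPKM and below 0 by fragments. The median of all eligible genes changed sign in the same way, from 0.32 to -0.00496. The value of tkv was lowest with the nested loci counted in.

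The Smad genes could be followed only through Mad. Mad encodes the receptor-activated Smad of the BMP branch (FBgn0011648, 2L:3146056-3159643, 13588 nt) and had an FPKM of 3.60 (2.97 to 4.23) in the Lsd1-RIP library and 2.48 (1.99 to 2.96) in the IgG-RIP library. The lower bound of the Lsd1-RIP value cleared the upper bound of the IgG-RIP value by 0.0124 FPKM, the smallest gap among the 5 genes with bounds apart. Its ratio of 0.40 (0.12 to 0.69) lay 0.080 above the median of all eligible genes.

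Med, which encodes the co-Smad Medea, was listed at 0 with status OK in both libraries, and no level is given for it. The gene (FBgn0011655, 3R:31611046-31615375, 4330 nt) overlaps CycG over 1619 nt, and CycG had an FPKM of 52.0 in the Lsd1-RIP library and 34.8 in the IgG-RIP library, with 1780 and 1424 fragments. CG11539, which overlaps the other end of Med over 92 nt, was also listed at 0 in both. A value of 0 in these tables can be a failed estimate, and the part of the overlaps in it was not tested.

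The longest locus after dally was that of shn, which shares 13121 nt with CG13229, a gene with under 1 fragment with the Lsd1 antibody and an FPKM of 0 with the control antibody. shn encodes Schnurri, a large zinc finger protein that joins Mad and Medea in repressing target genes (FBgn0003396, 2R:11159086-11217394, 58309 nt). With 589 fragments in the Lsd1-RIP library and 382 in the IgG-RIP library it was the best measured of the set. Its FPKM was 4.30 (3.94 to 4.65) in the Lsd1-RIP library and 2.45 (2.20 to 2.70) in the IgG-RIP library. The bounds were well apart, the plain fold was 1.76 (1.54 to 2.003), and the ratio was 0.62 (0.48 to 0.76), second to sax. Less the median of the 200 eligible genes nearest in implied length (fragments per FPKM, a choice made after seeing the data) it was -0.06.

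Of the modulators, dally had bounds apart and higher in the Lsd1-RIP library, and magu had nearly equal FPKM values. dally encodes a glypican, a cell-surface heparan sulphate proteoglycan that in cap cells concentrates BMP at the niche (FBgn0263930, 3L:8827505-8891192, 63688 nt). It had an FPKM of 2.46 (2.02 to 2.90) in the Lsd1-RIP library and 1.34 (1.06 to 1.63) in the IgG-RIP library. The bounds were apart and the ratio was 0.56 (0.31 to 0.82). Of the 3 loci overlapping dally, CG32026 was alone above 0, with 8 fragments in each library.

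magu, also called pentagone, encodes a secreted protein known for widening the range of Dpp in the wing disc (FBgn0262169, 2R:10052541-10063712, 11172 nt). Its FPKM was 2.06 (1.596 to 2.53) in the Lsd1-RIP library and 1.95 (1.53 to 2.37) in the IgG-RIP library. The bounds overlapped over most of their length and the ratio was 0.053 (-0.25 to 0.35), so its interval spanned 0. magu rested on 78.1 fragments in the Lsd1-RIP library and 85.9 in the IgG-RIP library. By fragments scaled to each library's total without ribosomal RNA it was at -0.35 on the log2 scale. The plain fold of sax was 2.36 times that of magu (interval 1.54 to 3.63). Within the magu locus, lncRNA:CR44298 had an FPKM of 0 with the Lsd1 antibody and 1 fragment with the control antibody, and PIG-N at its edge had 24.7 fragments in the Lsd1-RIP library and 16.5 in the IgG-RIP library.

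Ordered by FPKM, the genes ran put, tkv, sax, shn, Mad, dally, magu, gbb and dpp in the Lsd1-RIP library. Neighbours in that order had overlapping bounds except Mad and dally, and gbb and dpp. In the IgG-RIP library the order was tkv, put, Mad, shn, magu, sax, dally, gbb and dpp, where gbb and dpp were the only neighbours with bounds apart. sax therefore stood in place 3 with the Lsd1 antibody and in place 6 with the control antibody. Ordered by plain fold, sax was followed by gbb, dally and shn. The interval of sax over gbb (0.760 to 2.39) and that of sax over dally (0.908 to 2.04) included equality, whereas that of sax over shn (1.03 to 1.96) did not. No interval was corrected for the number of such pairs. sax was set against the others because it had the highest ratio of the eligible BMP genes, and the intervals do not allow for that choice. The same limit holds for the intervals of sax over tkv and over magu given above.

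Ratios across all eligible genes were higher for longer loci, and 5 of the 8 eligible BMP genes belong to the longest quintile. Genes in the shortest quintile of locus span, 152 to 1341 nt, had a median ratio of 0.19. In the longest quintile, 7587 to 215672 nt, it was 0.50 (middle 50% from 0.32 to 0.67). Each BMP gene was therefore set beside the 200 eligible genes nearest to it in span.

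**Figure D2:**
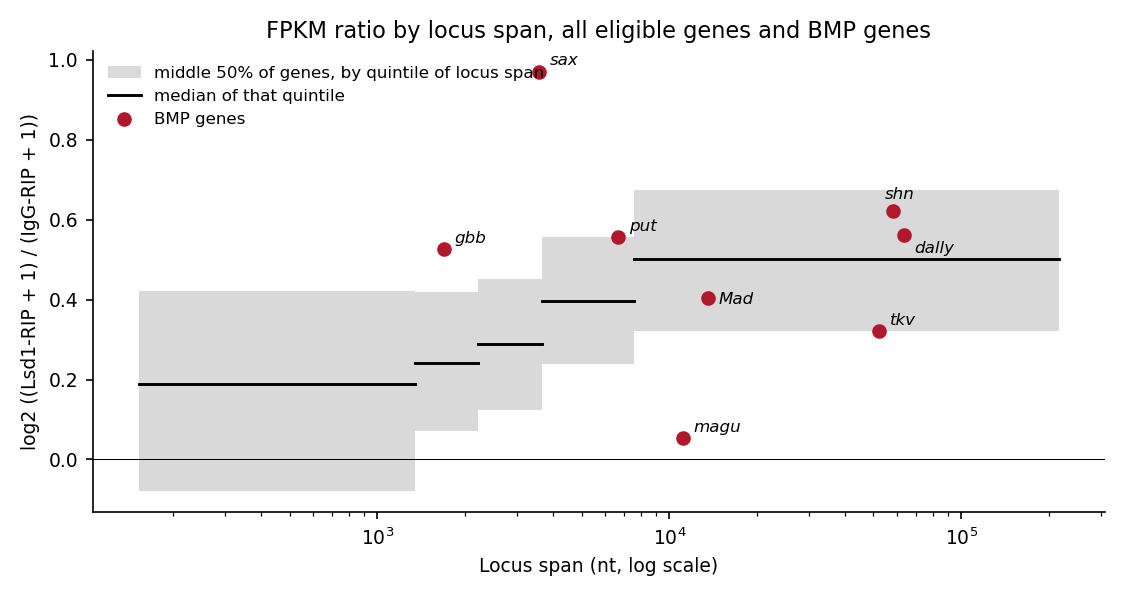
log2 ratio of Lsd1-RIP over IgG-RIP FPKM against locus span on a log scale. Black lines and grey bands are the median and the middle 50% of all eligible genes by quintile of span, rising in median from 0.19 to 0.50 with span, and red points are the 8 eligible BMP genes, of which sax and gbb lie above and magu below the band of its quintile.

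Beside genes of like span, sax and gbb were high, magu and tkv low, and the remaining 4 lay within the middle 50%. sax at 0.97 faced a median of 0.33 (middle 50% from 0.19 to 0.47), and 4 of the 200 genes exceeded it. gbb at 0.53 faced a median of 0.24 (0.073 to 0.41), and 34 of 200 exceeded it. The interval of gbb, 0.12 to 0.93, included that median. For magu the median was 0.48 (0.29 to 0.68), with 189 of 200 genes above its ratio of 0.053. For tkv it was 0.52 (0.36 to 0.71), with 160 of 200 above. The interval of tkv, 0.08 to 0.56, also included its like-span median.

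The like-span medians of put, Mad, dally and shn were 0.45, 0.47, 0.52 and 0.52, and 71, 120, 90 and 70 of their 200 genes had higher ratios. With the like-span median subtracted from each gene, the median of the 8 genes was 0.072, against 0.22 above the median of all eligible genes without regard to span. The median distance of the set was thus smaller beside genes of like span, but single genes differed. sax lay 0.65 above the all-gene median and 0.64 above its like-span median, and gbb 0.20 and 0.28. For put, dally and shn, 0.23, 0.24 and 0.30 became 0.11, 0.042 and 0.10. Mad went from 0.080 to -0.069, tkv from -0.0024 to -0.20 and magu from -0.27 to -0.42. The places of several genes depended on what the like genes shared. Beside the 200 genes nearest in mean FPKM, sax, gbb, dally and shn lay above the middle 50%, exceeded by 5, 44, 35 and 42 genes, and magu lay below it, exceeded by 170. tkv was no longer low there, with 106 of 200 above and a median of 0.33. Beside the 200 genes nearest in implied length, sax, gbb and put lay above the middle 50%, exceeded by 7, 26 and 42 genes, and magu below it, exceeded by 186. tkv lay within it, with 128 above. shn also lay within it but under the median of its like genes, 0.68, with 126 of 200 above, so its distance turned to -0.06. sax, gbb and magu thus kept their side of the middle 50% under all 3 choices, and tkv did not. The interval of gbb included the median of its like genes under each choice. That of magu did so beside genes of like mean FPKM, and that of sax under none.

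**Figure D3:**
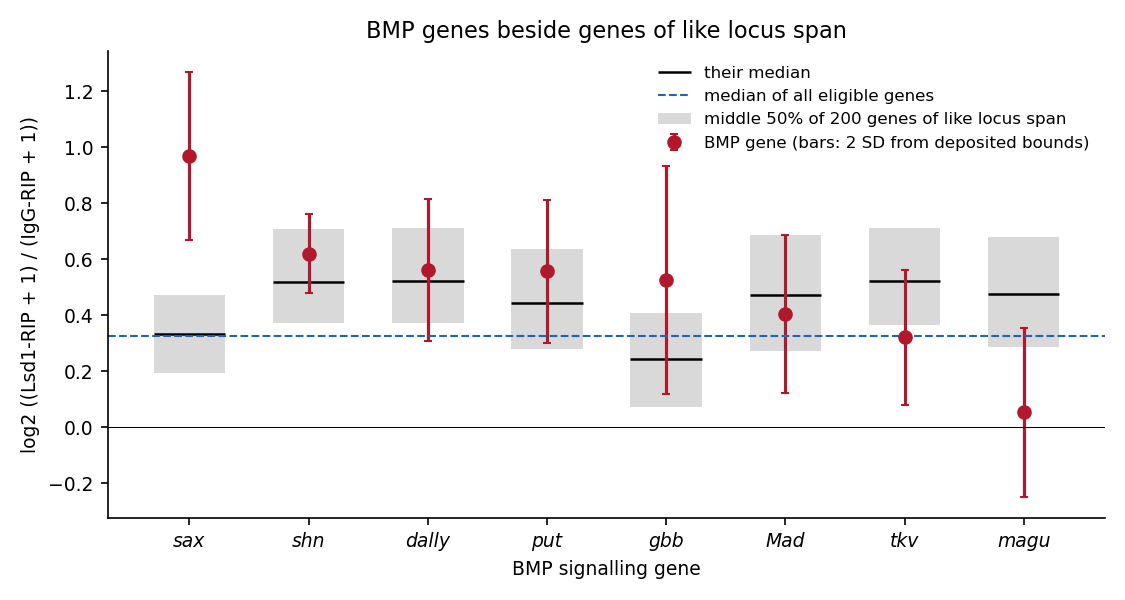
log2 ratio of each eligible BMP gene (red, bars 2 standard deviations from the deposited bounds) beside the median (black line) and middle 50% (grey) of the 200 eligible genes nearest in locus span. The dashed line is the median of all eligible genes, 0.32. sax at 0.97 and gbb at 0.53 lie above their grey bands, and tkv at 0.32 and magu at 0.053 below.

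The rest of the pathway was followed in 9 further lists of 60 genes: other ligands, receptors and Smads of the family, regulators inside and outside the cell, targets, matrix and the signalling pathways known to act on niche BMP. Of the 60, 32 were eligible, with a median ratio of 0.57, and 27 lay above the median of all eligible genes. Bounds were apart with a higher Lsd1-RIP value for 25 of the 32, against 36.1% of all eligible genes. They were apart with a lower value for 0, against 1.64%. Only trol and vkg reached 2-fold higher, against 2.12% of all eligible genes, and 0 reached 2-fold lower, against 0.697%. Less the median of genes of like span, the pooled median was 0.13, and 24 of the 32 lay above their like-span median. Of the like genes themselves, 50% lie above it by construction. For the BMP genes the same values were 0.072 and 5 of 8. The counts for single lists below are read against the same shares.

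The other ligand genes of the family were scarce apart from mav and myo. mav, which encodes the ligand Maverick, had an FPKM of 2.82 in the Lsd1-RIP library and 1.27 in the IgG-RIP library, a ratio of 0.75. myo, which encodes Myoglianin, had 3.10 and 2.06 FPKM in the same order, a ratio of 0.42. scw had under 1 fragment with the Lsd1 antibody and an FPKM of 0 with the control antibody. Of the activin branch, the type I receptor gene babo had 7.502 FPKM in the Lsd1-RIP library and 4.08 in the IgG-RIP library (ratio 0.74), and the Smad gene Smox 4.32 and 2.79 (0.49). Bounds were apart and higher for all 4 of mav, myo, babo and Smox, against 36.1% of all eligible genes.

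Among regulators inside the cell, 6 of 9 genes were eligible, with a median ratio of 0.54. Bounds were apart and higher for 4, against 36.1% of all eligible genes. nmo, a kinase gene whose product phosphorylates Mad, had the highest ratio at 0.82, with 5.57 FPKM in the Lsd1-RIP library and 2.71 in the IgG-RIP library. spict, which encodes a protein that lowers BMP receptor levels at the fly neuromuscular junction, had the lowest at -0.15, with 2.13 and 2.48 FPKM and overlapping bounds. Of the cofactors and targets, 3 of 7 were eligible, all with bounds apart and higher, against the same 36.1%. nej, which encodes the CBP acetyltransferase, led at 0.82 with 5.69 FPKM in the Lsd1-RIP library and 2.78 in the IgG-RIP library, and emc, an inhibitor of bHLH factors, was lowest at 0.38 with 6.42 and 4.70.

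bam, the gene that BMP signalling silences in germline stem cells, was singled out afterwards. It had an FPKM of 1.42 (0.953 to 1.88) in the Lsd1-RIP library and 0.654 (0.361 to 0.948) in the IgG-RIP library, a ratio of 0.55. Its bounds were apart by a narrow margin, on 37.1 and 19.9 fragments. In the same list bi had under 1 fragment with the Lsd1 antibody and an FPKM of 0 with the control antibody. The inhibitory Smad gene Dad and the repressor gene brk, both known to respond to BMP signalling and also singled out afterwards, were not eligible. Dad had 0.691 FPKM in the Lsd1-RIP library and 0.542 in the IgG-RIP library, and brk 0.674 and 1.10, each with overlapping bounds.

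Extracellular antagonists and proteases were mostly near 0, and 3 of 10 were eligible. Fur2, a furin protease gene of the kind that processes BMP precursors, had 7.78 FPKM in the Lsd1-RIP library and 4.69 in the IgG-RIP library (ratio 0.63). cv, which encodes a BMP-binding protein needed for crossvein formation in the wing, had 2.65 and 2.59 (0.023), with overlapping bounds. tld had an FPKM of 0 with the Lsd1 antibody and 3 fragments with the control antibody. Of the 10 genes for heparan sulphate core proteins and their synthesis, 5 were eligible. trol, which encodes perlecan of the basement membrane, had 20.5 FPKM (19.8 to 21.2) in the Lsd1-RIP library and 8.95 (8.52 to 9.37) in the IgG-RIP library, a ratio of 1.11. Sdc, the syndecan gene, was lowest at 0.21, with 5.28 and 4.43 FPKM.

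The 2 type IV collagen genes encode matrix chains that bind Dpp. vkg had an FPKM of 16.5 (15.4 to 17.6) in the Lsd1-RIP library and 6.16 (5.63 to 6.69) in the IgG-RIP library, a ratio of 1.29. Col4a1 had 18.5 and 10.5 FPKM, a ratio of 0.76. By fragments scaled by totals without ribosomal RNA, trol and vkg were each at 0.62, and neither reached 2-fold. Haemocytes, blood cells that also make these matrix proteins, were represented by a list of 5 markers, of which 2 were eligible. Its summed FPKM was 5.997 in the Lsd1-RIP library and 3.07 in the IgG-RIP library, nearly all of it from Ppn and srp, and the defining marker Hml was at 0.0703 and 0.0649 FPKM in the same order. The part of haemocyte RNA in the collagen values was not tested.

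Of the JAK/STAT genes, which act upstream of BMP production in the niche, 4 of 7 were eligible. Stat92E, the transcription factor gene, had 8.99 FPKM in the Lsd1-RIP library and 4.74 in the IgG-RIP library (ratio 0.80), and Socs36E, a feedback inhibitor gene, 1.18 and 0.881 (0.21). upd3 had an FPKM of 0 with the Lsd1 antibody and 1.99 fragments with the control antibody. In the EGFR pathway, which is known to restrain dally in escort cells, 5 of 7 genes were eligible. All 5 lay above the all-gene median, where 50% of genes lie by construction. The ligand gene spi had 6.08 FPKM in the Lsd1-RIP library and 3.12 in the IgG-RIP library (0.78), and the ligand gene Krn 2.25 and 1.56 (0.34).

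**Figure D4:**
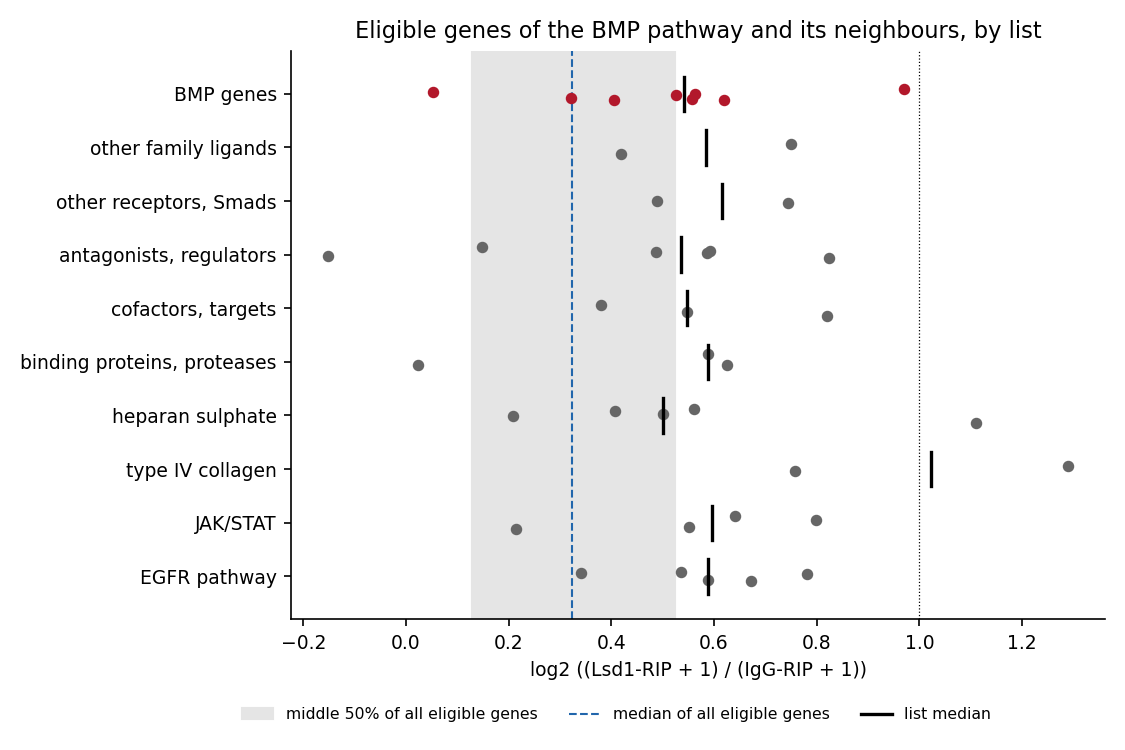
log2 ratio of every eligible gene in the BMP set (red) and in 9 further pathway lists (grey), with the list medians as black ticks. The dashed line and shaded band are the median, 0.32, and middle 50% of all eligible genes, and the dotted line at 1 is 2-fold, passed by trol and vkg alone.

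The tissue label was checked with marker lists. Of 10 germline markers 9 were eligible, with a summed FPKM of 287 in the Lsd1-RIP library and 160 in the IgG-RIP library, led by osk. Their median ratio was 0.62, and bounds were apart and higher for all 9, against 36.1% of all eligible genes. nos (ratio 1.34) and orb (1.04) passed 2-fold, against 2.12%. By fragments scaled by totals without ribosomal RNA, nos was at 0.93 and orb at 0.05. Escort cell markers summed to 21.3 and 15.03 FPKM, with 4 of 8 eligible and fax the most abundant. That sum includes tj (6.29 and 5.04 FPKM) and eya (3.26 and 2.25), which are also in the follicle cell list. ptc, Wnt4, Con and hh were each below 1 FPKM in both libraries. The eligible markers had a median ratio of 0.33 in the escort cell list and 0.28 in the follicle cell list. Cap cell and terminal filament markers, of which LamC was the most abundant and dally is 1 of 7, summed to 10.2 and 6.43 FPKM, with 3 eligible. Of the defining genes, en was listed at 0 in both libraries and hh had 0.0292 FPKM in the Lsd1-RIP library and 0.0999 in the IgG-RIP library. Follicle cell markers, led by tj, summed to 21.1 and 17.7 FPKM, and those of the ovarian muscle sheath to 114 and 128. Of the 6 muscle genes, Act57B was the most abundant, with 62.8 FPKM in the Lsd1-RIP library and 56.0 in the IgG-RIP library. Bounds were apart and lower in the Lsd1-RIP library for up (19.3 and 38.6 FPKM, ratio -0.96) and Mhc (5.62 and 8.20, ratio -0.48), against 1.64% of all eligible genes. They were apart and higher for Zasp52 (3.45 and 1.49, ratio 0.84), against 36.1%. Markers of fat body, testis and accessory gland, and nervous system each summed to at most 1.02 FPKM, led by apolpp, bol and elav. The gut markers summed to 13.9 and 8.496 FPKM, most of it alphaTry.

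The ends of the order were compared under other scales. sax was the highest of the 8 genes under each of 10 alternative scales and corrections run. magu was the lowest under 9 of them, and tkv under the one that counts its nested loci. Some alternatives could hardly alter the order. Centring subtracts the same value from every gene, and rescaling a library can change the order only through the added value. Without any added value, the ratio of sax was 1.32 and the only one of the 8 past 2-fold, against 8.75% of all eligible genes.

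**Figure D5:**
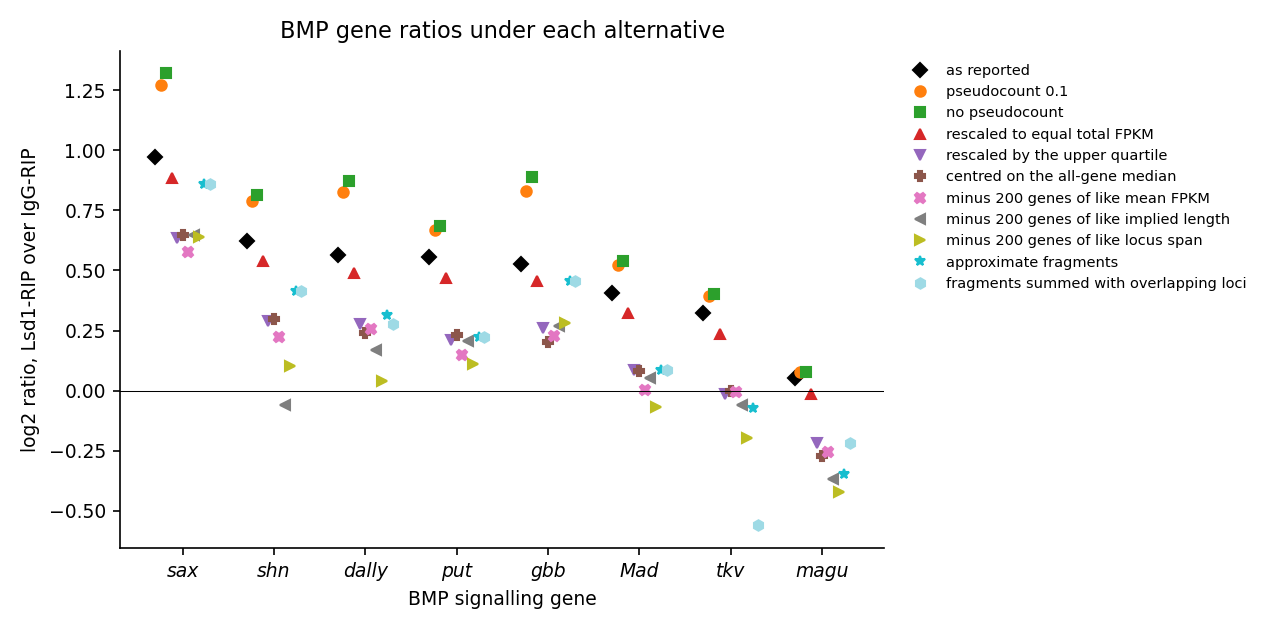
log2 ratio of Lsd1-RIP over IgG-RIP for each eligible BMP gene as reported (black diamonds) and under 10 alternatives. sax stays above 0.57 in each, and magu and tkv fall below 0 in most.

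The eligible genes closest to the typical BMP gene in both libraries were Ppat-Dpck, CG4884 and Rb97D. They lay within 0.029 log2 units of the medians of the 8 genes, 3.93 FPKM in the Lsd1-RIP library and 2.19 FPKM in the IgG-RIP library. With 2 libraries this likeness rests on 2 values per gene.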

How the data were processed

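Per the labels, 1 ovarian lysate was divided between the precipitations, and libraries were made with TruSeq RNA kit v2 without poly(A) selection. The authors deposited gene FPKM with lower and upper bounds and a status, per the file headers. Tools listed in the submitters' processing notes are SAMtools 0.1.18.0, Cufflinks and Bowtie2 2.0.6.0, with the build dm6. Their options and the gene models were not given in the sources used here. Coordinates are dm6, counted from 1, and for all 10 genes equal those of NCBI's Release 6 table.

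Each bound was taken as 2 standard deviations from the FPKM, and approximate fragments as the square of FPKM over that standard deviation. They summed to 2494964 in the Lsd1-RIP and 2661722 in the IgG-RIP library, or 1201797 and 1039524 without ribosomal RNA loci. For the 8 eligible genes, fragments per FPKM in the Lsd1-RIP library were 0.786 to 0.877 times those in the IgG-RIP library. Python 3.11.15 and pandas 2.3.3 were used, and the calculation was tested on simulated data. The tables also marked 25 loci as having too many fragments to estimate, at FPKM 0.

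With 1 library per group no test was run. A gene was called at a log2 ratio of 1 or -1, or by bounds that did not overlap. The genes, lists and rules were chosen with earlier results of these data known. All 10 BMP genes are named. Of each list, genes past 2-fold are named, or otherwise the highest and lowest eligible gene, with those listed at 0 in 1 library only. The gene krn of the EGFR list was found as Krn through its synonyms. Alternatives were the added value, the scaling, the minimum FPKM, approximate fragments, overlapping loci, and genes of like span, level or implied length. The last, fragments per FPKM, was chosen after seeing the data.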

Additional observations from a re-analysis of the deposited data

How the results depend on the processing

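No paired analysis was possible because each antibody has 1 library. The median log2 ratio of the 8 BMP genes, 0.54 as reported, was 0.73 with 0.1 added in place of 1, 0.75 with nothing added and 0.46 with the libraries at equal total FPKM. It was 0.22 when centred on the all-gene median, 0.24 after scaling by the upper quartile, 0.27 by approximate fragments, 0.25 by fragments summed with overlapping loci, and, with the median of 200 like genes removed, 0.072 by locus span, 0.19 by mean FPKM and 0.11 by implied length. It stayed positive in all of these, and between 0.53 and 0.56 when any 1 gene was left out. The minimum of 5 FPKM left no BMP gene. The count of BMP genes at least 2-fold higher, 0 as reported, was 1 with 0.1 or nothing added. The shares of all eligible genes were 7.90% with 0.1 added and 8.75% with nothing added. At 1.5-fold the count was 2 (sax and shn, against 19% of all eligible genes). The count with bounds apart, 5 as reported, was 2 after centring, against 10.6% of all eligible genes. For the other pathway lists together, the median of 0.57 was 0.79 with 0.1 added, 0.25 after centring and 0.37 by fragments. With no minimum FPKM it was 0.36. Their count at least 2-fold higher, 2 of 32 as reported, was 7 with 0.1 added, 0 after centring and 0 by fragments. Of all eligible genes, 7.90% were at least 2-fold higher with 0.1 added, 1.03% after centring and 1.31% by fragments. The cause of these shifts was not tested, except that centring and like-gene subtraction remove an offset by construction. The median of all eligible genes moved as well. From 0.32 as reported it became 0.42 with 0.1 added, 0.44 with nothing added and 0.24 at equal total FPKM. It was 0.012 after scaling by the upper quartile and -0.00496 by fragments. Depth limited dpp and gbb most, with at most 43.0 fragments in a library.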

Other observations

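brk, a repressor gene that BMP signalling itself silences, had a lower value in the Lsd1-RIP library. Its FPKM was 0.674 (bounds 0.435 to 0.912) in the Lsd1-RIP library and 1.10 (0.813 to 1.39) in the IgG-RIP library, so the bounds overlapped narrowly. It rested on 31.9 fragments in the Lsd1-RIP library and 58.9 in the IgG-RIP library. Its plain fold was 0.613 (interval 0.395 to 0.951). Its log2 ratio was -0.33 (interval -0.61 to -0.04) with 1 FPKM added, and -1.10 by fragments scaled by totals without ribosomal RNA. By fragments, 1.59% of all eligible genes were at least 2-fold lower, and brk was not among the eligible genes. Dad, which BMP signalling activates, was at 0.13 (-0.13 to 0.40) with 1 FPKM added and at -0.08 by fragments. The median of all eligible genes was 0.32 and -0.00496 on these scales. Dad was thus below that median on both, and its interval on the first included it. brk was singled out after its values were seen, and its mean FPKM was below the minimum used for the comparisons.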
